A study of Arabidopsis thaliana with 30 samples.

Results

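The 34 genes described here rise late in wild-type seeds of Arabidopsis thaliana and stood already high at the earlier of the studied ages in seeds of the mutants fus3-3 and lec1-1. They were chosen on group means of log2 array signal by 4 conditions, each a difference of at least 1, which is 2-fold. In Col-0 and in WS, the wild types, the signal had to be higher at 12 than at 8 days after flowering (DAF), and at 8 DAF it had to be higher in fus3-3 than in Col-0 and in lec1-1 than in WS. Of 13355 genes with a probe set paired with no other gene, 39 met the 4 conditions. The rule as given leaves out 5 of these by name (AT3G15670, AT4G36600, LEA18, LEA4-5 and AT3G53040), and 3 further genes that it names, AT1G72100, AT2G47780 and AT2G25890, did not meet the 4 conditions.

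Whole developing seeds were taken out of the fruits of homozygous fus3-3 plants and their wild type Col-0, and of homozygous lec1-1 or lec2-1 plants and their wild type WS, at 8 and 12 DAF, with no other treatment in the labels. Each of the 10 groups had 3 arrays, described as biological replicates and as coming from triplicate batches of plants, so that 12 arrays form the Col-0 background and 18 the WS background. The study's title names the purpose, gene regulation by LEC1, LEC2, FUS3 and ABI3, and each mutant carries a lesion in 1 of the first 3. FUS3, LEC2 and LEC1 lacked a probe set paired with them alone and were not analysed here, so the genotype labels were not checked against the mutated genes.

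Seed maturation follows the patterning of the embryo: the seed lays down storage proteins and oil, and then acquires tolerance of drying while late embryogenesis abundant (LEA) proteins, very hydrophilic proteins of drying tissues, build up. FUS3 and LEC2 are transcription factors with a B3 DNA-binding domain, LEC1 belongs to the trimeric factor NF-Y as its B subunit, and the loss of FUS3 or LEC1 is known for seeds that do not survive drying and for cotyledons with leaf-like traits.

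Over the 30 arrays the median log2 signal was 4.29 to 4.71, replicate arrays correlated over genes at r of 0.984 to 0.996, and the minima and maxima of the arrays were 1.65 to 1.76 and 15.27 to 15.71. A signal under 3 lies toward the floor, and there a difference in log2 understates the change. Signal was measured in whole seeds, where fewer cells of a type and less RNA per cell cannot be told apart. Precision throughout is limited by the 3 arrays of each group. Throughout, ± after a signal is the SD over 3 arrays and ± after a log2 change is the SE from the fit, with 3 arrays per group. A gene is called risen or fallen at an adjusted p below 0.05, over all 13355 genes in limma, and a change of at least 2-fold.

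The 34 genes are all annotated as protein-coding loci, and the gene table used here gives a name to only 2 of them. BGLU25 (AT3G03640) is a beta-glucosidase, an enzyme family that cleaves glucose from glucosides, and PIA1 (AT2G20630) is a protein phosphatase of the PP2C class, named for its induction by the bacterial effector AvrRpm1. A list of LEA genes holds 4 more, AT2G18340, AT2G23110, AT2G42560 and AT3G02480. The other 28 are given by locus alone. For 33 genes 1 probe set was usable, and for AT1G79150 the second probe set missed the rule, with a Col-0 change of 0.099.

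The levels that chose the genes are given as a description, with no test. The rule itself favours a separation of the mutant arrays from the wild-type arrays of 8 DAF, here and in the examples that follow. The median over the 34 genes of the group mean signal was 6.39 in fus3-3 at 8 DAF, against 3.51 in Col-0 at 8 DAF, and it was 6.65 in lec1-1 at 8 DAF, against 4.55 in WS at 8 DAF. At 12 DAF the median stood at 7.87 in Col-0 and 7.73 in WS. Set against the rise that the wild type makes between 8 and 12 DAF, the early excess came to a median of 72.0% in fus3-3 and 63.4% in lec1-1. It exceeded the whole wild-type rise for 9 genes in fus3-3 and 12 in lec1-1, 8 of them in both, and stayed under 50% for 10 and 11 genes. In Col-0 or WS at 8 DAF, 12 of the genes had a mean signal under 3.

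**Figure D1:**
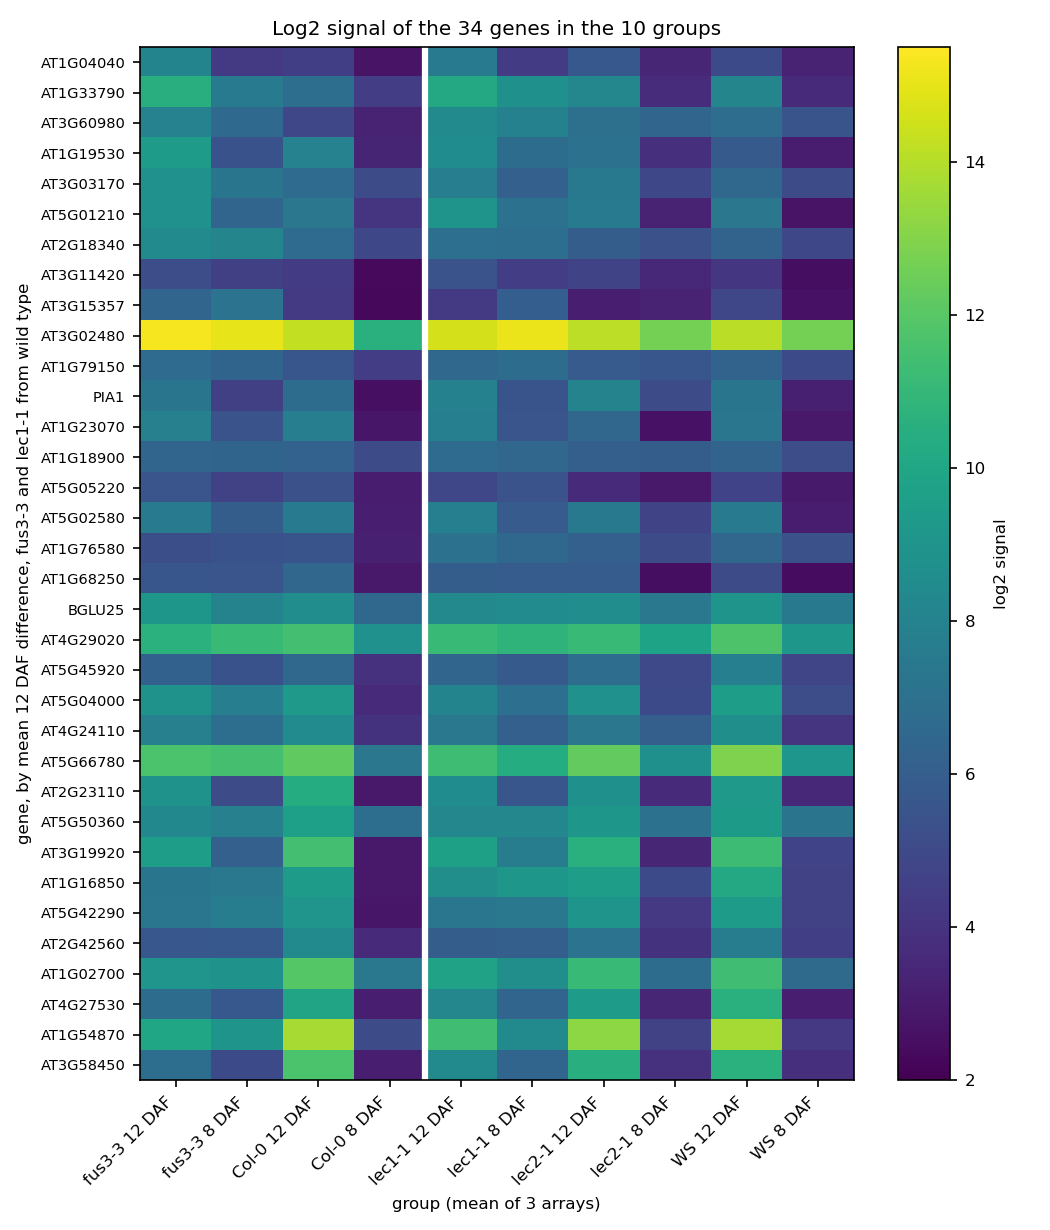
Mean log2 signal of the 34 genes (rows) in the 10 groups (columns, 3 arrays each), with the genes ordered by the mean of their fus3-3 minus Col-0 and lec1-1 minus WS differences at 12 DAF. The Col-0 and WS columns at 8 DAF, and that of lec2-1 at 8 DAF, are the darkest, with medians of 3.51, 4.55 and 4.85.

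The early excess ranged widely. AT3G15357 had the largest share in fus3-3, at 241% of the Col-0 rise. Its signal was 7.98, 6.84 and 6.55 in fus3-3 at 8 DAF, against 2.24, 2.24 and 2.32 in Col-0 at 8 DAF and 4.12, 4.35 and 4.38 in Col-0 at 12 DAF. It was 6.09, 6.09 and 5.93 in lec1-1 at 8 DAF, against 2.24, 2.64 and 3.06 in WS at 8 DAF and 4.64, 4.94 and 4.98 in WS at 12 DAF. Every array of the young mutant seeds was thus above every wild-type array of either age. AT3G60980 had the largest share in lec1-1, at 185% of the WS rise, and a share of 214% in fus3-3. AT3G58450 was at the other end in fus3-3, where 5.89, 4.44 and 4.78 at 8 DAF, against 3.68, 2.81 and 2.9 in Col-0 at 8 DAF, made 22.2% of the Col-0 rise. Its fus3-3 arrays at 8 DAF were all above the Col-0 arrays of that age and far below those of Col-0 at 12 DAF, which had 11.39, 12.13 and 11.55. The smallest share in lec1-1 was that of AT5G66780, at 33.8%, beside 86.1% in fus3-3.

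Among the LEA genes, AT3G02480 was the brightest of the 34 genes in every group. It had 15.17, 14.8 and 15.06 in fus3-3 at 8 DAF, against 10.89, 11.17 and 9.68 in Col-0 at 8 DAF, and 15.08, 15.09 and 15.18 in lec1-1 at 8 DAF, against 12.55, 12.65 and 12.86 in WS at 8 DAF. The young mutant seeds were close to the top of the array scale and above the 12 DAF wild types, at 14.22, 14.23 and 14.38 in Col-0 and 14.07, 14.06 and 14.2 in WS. AT2G18340 had 8.27, 8.19 and 7.92 in fus3-3 and 6.83, 6.57 and 7.19 in lec1-1 at 8 DAF, against 4.83, 5.16 and 4.79 in Col-0 and 4.85, 4.99 and 4.95 in WS at 8 DAF. Its fus3-3 arrays were all above the 6.44, 7.59 and 6.21 of Col-0 at 12 DAF, and its lec1-1 arrays overlapped the 6.77, 6.14 and 6.0 of WS at 12 DAF. AT2G42560 and AT2G23110 made a smaller part of their rise early, with shares of 43.3% and 29.6% in fus3-3 and 50.8% and 36% in lec1-1. Of the genes with names, PIA1 had 4.37, 4.58 and 4.72 in fus3-3 at 8 DAF, against 2.93, 2.1 and 2.59 in Col-0 at 8 DAF, and 5.67, 5.54 and 5.24 in lec1-1 at 8 DAF, against 3.06, 2.63 and 3.95 in WS at 8 DAF. The mutant arrays of PIA1 did not overlap the wild-type arrays in either background, a separation that the rule favours.

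The 3 genes closest above the limit of 1 lay there through their lec1-1 minus WS difference at 8 DAF. AT5G50360 had 8.02, 8.34 and 8.31 in lec1-1, against 7.22, 7.27 and 7.15 in WS, a difference of 1.01. AT1G04040 had 4.28, 4.52 and 4.3 in lec1-1, against 3.03, 3.34 and 3.67 in WS, and BGLU25 had 8.53, 8.65 and 8.29 in lec1-1, against 7.25, 7.44 and 7.72 in WS, each a difference of 1.02. The arrays of these 3 genes did not overlap between lec1-1 and WS, which the rule favours. Just outside lay AT4G30150, with 5.34, 5.54 and 5.3 in lec1-1, against 4.53, 4.42 and 4.26 in WS at 8 DAF, a difference of 0.99. AT3G51270, with 6.12, 5.99 and 6.27 at 12 DAF, against 5.18, 5.0 and 5.31 at 8 DAF in Col-0, missed with a rise of 0.961, and AT2G18220, with 5.32, 5.18 and 5.66 at 12 DAF, against 4.83, 4.31 and 4.21 at 8 DAF in WS, missed with a rise of 0.934.

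Other maturation genes and markers of tissues stood as follows in the seeds at 8 DAF. The mean signal of the 3 measured of 9 seed coat markers was 7.82 to 8.63 in fus3-3, against 8.92 to 9.11 in Col-0 at 8 DAF, beside 5.30 to 5.91 in Col-0 at 12 DAF. In the WS background it was 6.66 to 6.82 in lec1-1 and 6.80 to 6.92 in WS at 8 DAF. The 11 measured of 46 photosynthesis genes averaged 10.38 to 10.61 in fus3-3, against 11.68 to 11.86 in Col-0, and 10.14 to 10.24 in lec1-1, against 10.96 to 11.32 in WS at 8 DAF. The 5 measured of 13 storage protein genes, by contrast with the 34 genes, were lower in the mutants, at 8.62 to 9.14 in fus3-3, against 11.15 to 11.59 in Col-0, and 10.44 to 10.66 in lec1-1, against 12.39 to 12.59 in WS. The 3 measured of 8 endosperm markers averaged 2.47 to 2.57 in the 4 groups, near the floor. The silique wall marker ALC was higher in the mutants on every array, at 3.84 to 4.57 in fus3-3, against 3.35 to 3.56 in Col-0, and 3.55 to 3.95 in lec1-1, against 2.87 to 3.41 in WS. The part of these markers in the early excess of the 34 genes was not tested.

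Whether the third mutant, lec2-1, makes the late rise on time was tested on arrays that the 4 conditions did not use. The rise that they required in WS, the wild type of lec2-1, still favours a rise in lec2-1. From 8 to 12 DAF in lec2-1, 28 of the 34 genes rose and 0 fell in limma, with 0 falling at an unadjusted p below 0.05, where 6.64% of all genes rose and 6.34% fell. The change was above 0 for 33 of them, with a median of 2.83 log2 units, and for 30 all arrays of 12 DAF were above all those of 8 DAF, as they were for 20.8% of all genes, while all were below for 19.2% of all genes and 0 of the 34. For the other 614 genes that rose by 2-fold or more in both wild types, such separation was as common. All lec2-1 arrays of 12 DAF were above all those of 8 DAF for 575 of them and below for 1. Of these 614, 454 rose in lec2-1 and 0 fell, with a median of 1.48. The wild-type rise in WS was also larger for the 34 genes, with a median of 3.08, than for the other 614, with 1.65. Over the same interval in lec2-1, 2 of the 3 seed coat markers fell (median −2.01), ALC, of the silique wall list, rose by 1.15 ± 0.19, and 1 of the 3 endosperm markers, MPC, rose by 1.06 ± 0.33. Of the 11 photosynthesis genes 1 fell. The part of these markers in the rise of the 34 genes was not tested.

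The largest lec2-1 rise was that of AT1G54870, with 13.08, 13.42 and 13.09 at 12 DAF, against 4.7, 4.31 and 4.84 at 8 DAF, a change of 8.58 ± 0.46 log2 units (adjusted p = 5.1e-09), or 384-fold. AT3G19920 had 10.44, 10.99 and 10.24 at 12 DAF, against 3.76, 2.93 and 3.73 at 8 DAF, a change of 7.08 ± 0.28 (adjusted p = 2.1e-10). AT3G58450 had 10.44, 10.81 and 10.24 at 12 DAF, against 4.02, 3.86 and 3.97 at 8 DAF, a change of 6.54 ± 0.20 (adjusted p = 2e-11). All lec2-1 arrays at 12 DAF were far above those at 8 DAF for these 3 genes. AT4G27530 followed, with 9.3, 9.79 and 9.11 at 12 DAF, against 3.36, 3.7 and 3.29 at 8 DAF, a change of 5.95 ± 0.17 (adjusted p = 1.3e-11).

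The 6 genes that did not pass were AT3G15357, AT1G18900, AT1G79150, AT3G60980, AT2G18340 and AT5G05220. AT3G15357 had 3.75, 3.03 and 2.6 at 12 DAF, against 3.38, 3.43 and 3.04 at 8 DAF in lec2-1, a change of −0.16 ± 0.24 (adjusted p = 0.82), with overlapping arrays. AT1G18900 had 5.75, 6.03 and 6.4 at 12 DAF, against 5.92, 6.22 and 5.75 at 8 DAF, and AT1G79150 had 5.55, 5.89 and 6.14 at 12 DAF, against 5.85, 5.54 and 5.47 at 8 DAF, again with overlap. AT3G60980 had 6.7, 7.04 and 7.14 at 12 DAF, against 6.32, 6.32 and 6.51 at 8 DAF, without overlap but with a change of 0.58 ± 0.12, under the 2-fold limit (adjusted p = 0.0014). In WS the rises of these genes, which the rule requires, were 2.21 for AT3G15357, 1.14 for AT1G18900, 1.25 for AT1G79150 and 1.3 for AT3G60980. Among the LEA genes AT2G23110 rose by 5.2 ± 0.26, AT2G42560 by 3.14 ± 0.38 and AT3G02480 by 1.49 ± 0.14, and AT2G18340 changed by 0.6 ± 0.27 without passing (adjusted p = 0.12). PIA1 rose by 2.96 ± 0.26 and BGLU25 by 1.21 ± 0.14. The rise of AT1G76580, at 1.0 ± 0.17, went under 2-fold without lec2-1 8 DAF replicate 2 (0.83) and without either of lec2-1 12 DAF replicates 1 and 2 (0.97 and 0.94), and that of AT3G11420, at 1.27 ± 0.34, was lost without lec2-1 8 DAF replicate 3 (adjusted p = 0.053).

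**Figure D2:**
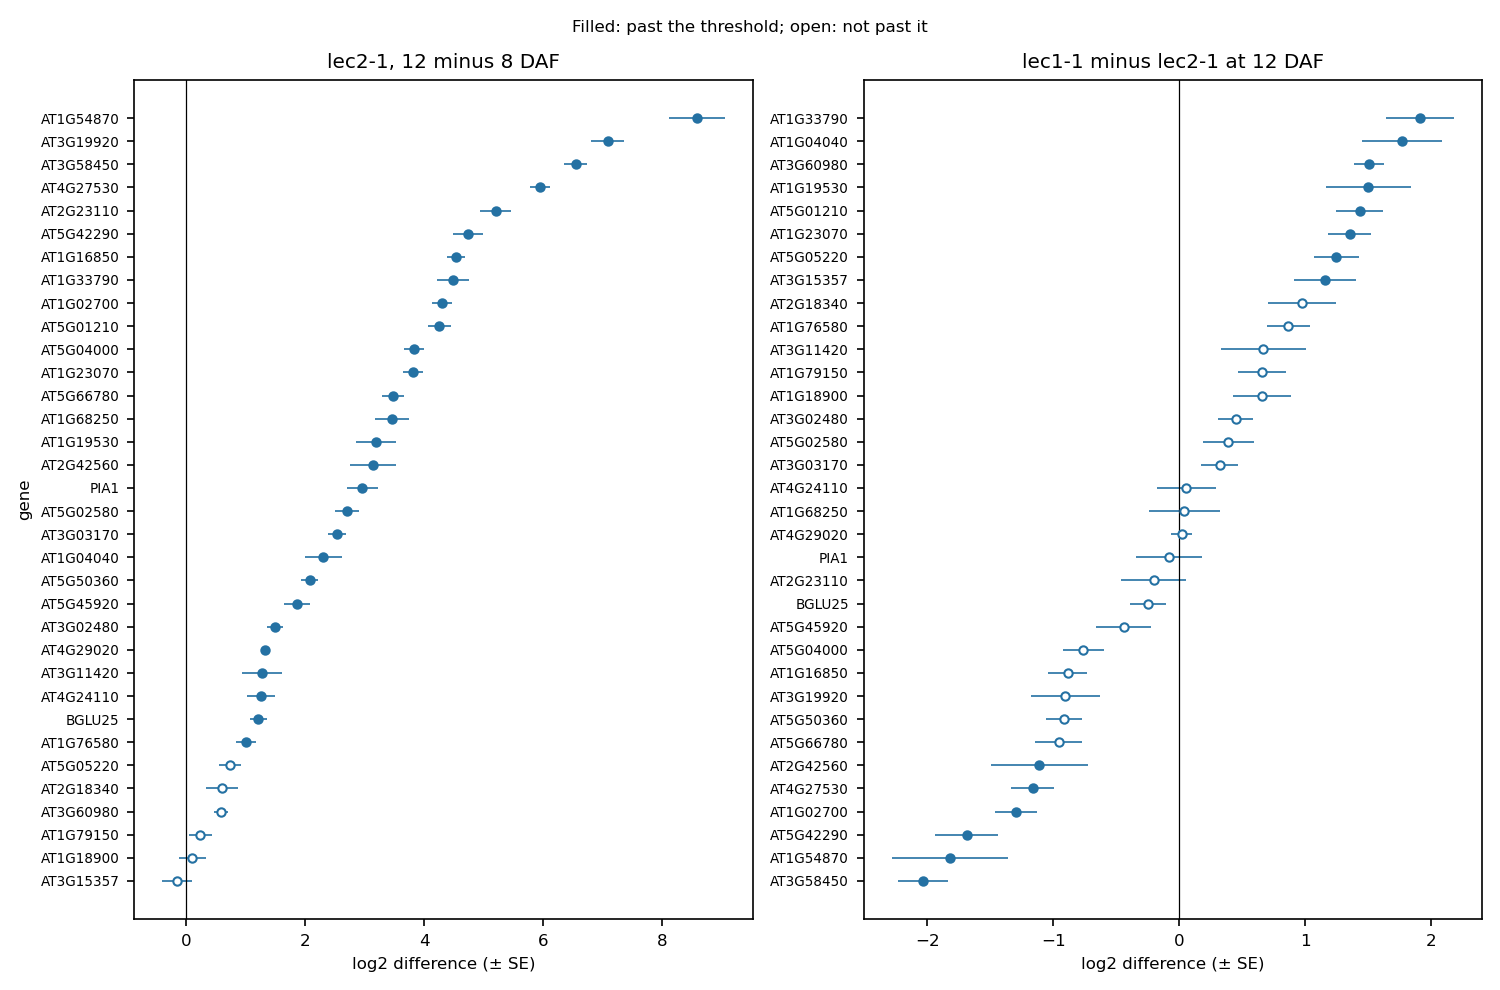
Log2 differences of the 34 genes (points, with SE bars, 3 arrays per group) in lec2-1 at 12 minus 8 DAF (left) and in lec1-1 minus lec2-1 at 12 DAF (right), each sorted by size; filled points passed the threshold. On the left 28 points are filled, all above 0, and on the right 8 filled points lie above 0 and 6 below it.

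At 8 DAF most of the 34 genes did not pass in lec2-1 against WS. In this comparison the WS arrays were chosen low by the rule and the lec2-1 arrays were not. Of the 34 genes 3 rose and 1 fell, where 1.6% of all genes rose and 1.08% fell, and the median difference was 0.116 log2 units. The difference was above 0 for 23 of the 34, beside 7480 of all 13355 genes and 189 of the other 614 late-rising genes. Of those 614, 17 rose and 44 fell. The lec2-1 mean at 8 DAF reached the WS mean of 12 DAF for 0 of the 34 genes. The lec1-1 mean did so for 12, but the rule chose the lec1-1 arrays of 8 DAF high. These counts are thus not like for like. AT4G24110 rose most, with 6.19, 6.04 and 6.03 in lec2-1, against 3.72, 4.1 and 4.39 in WS, a difference of 2.02 ± 0.23 (adjusted p = 0.0001). PIA1 rose by 1.85 ± 0.26, with 5.12, 5.1 and 4.96 in lec2-1, against 3.06, 2.63 and 3.95 in WS, and AT5G02580 rose by 1.7 ± 0.20, with 4.45, 5.09 and 4.73 in lec2-1, against 3.22, 2.72 and 3.23 in WS. The lec2-1 arrays of these 3 genes were all above the WS arrays, which the rule chose low. The gene that fell was AT3G19920, with a difference of −1.25 ± 0.28 (adjusted p = 0.0089), a call lost without lec2-1 8 DAF replicate 2, when the difference was −0.98.

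At 12 DAF the genes parted in fus3-3 and lec1-1: some went on to levels above the wild type and others stayed well below it. In fus3-3 against Col-0, 10 rose and 10 fell, where 11.9% of all genes rose and 11.5% fell. In lec1-1 against WS, 7 rose and 13 fell, where 10.4% of all genes rose and 9.93% fell. The wild-type arrays of 12 DAF were chosen high by the rule, so that falls are favoured, and the mutant arrays of 12 DAF were not part of it. The rule also chose both mutants high at 8 DAF, which favours higher mutant values at 12 DAF. For the other 614 late-rising genes the median differences at 8 DAF were −0.034 in fus3-3 and −0.242 in lec1-1. The contrast between them and the 34 genes at 12 DAF is thus partly built in. Of the other 614 late-rising genes, 12 rose and 443 fell in fus3-3, and 10 rose and 399 fell in lec1-1. Median differences were −0.13 in fus3-3 and −0.18 in lec1-1 for the 34 genes, and −1.66 and −1.31 for the other 614. With arrays centred on 5 reference genes the counts in lec1-1 were 11 risen and 10 fallen, in a scaling that moved the median of all genes from −0.11 to 0.34, and those in fus3-3 stayed at 10 and 10.

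The same genes rose in both mutants in 6 cases (AT1G04040, AT1G33790, AT3G60980, AT1G19530, AT3G03170 and AT5G01210) and fell in both in 9 (AT3G58450, AT1G54870, AT4G27530, AT1G02700, AT2G42560, AT1G16850, AT3G19920, AT5G42290 and AT5G50360). Over all genes 7.91% rose in both and 7.29% fell in both, and of the other 614 late-rising genes 4 rose and 347 fell in both. The difference had the same sign in both mutants for 30 of the 34 genes, 15 above 0 and 15 below. Over the 34 genes the 2 sets of differences correlated at Pearson r = 0.843 (Spearman rho = 0.845), a description across genes, which are not independent replicates. The comparisons share no arrays, but the rule put like conditions on both. The same r was 0.633 over the other 614 late-rising genes and 0.829 over all genes. Likeness between the mutants was thus not particular to the 34 genes, and signs were not counted over all genes.

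**Figure D3:**
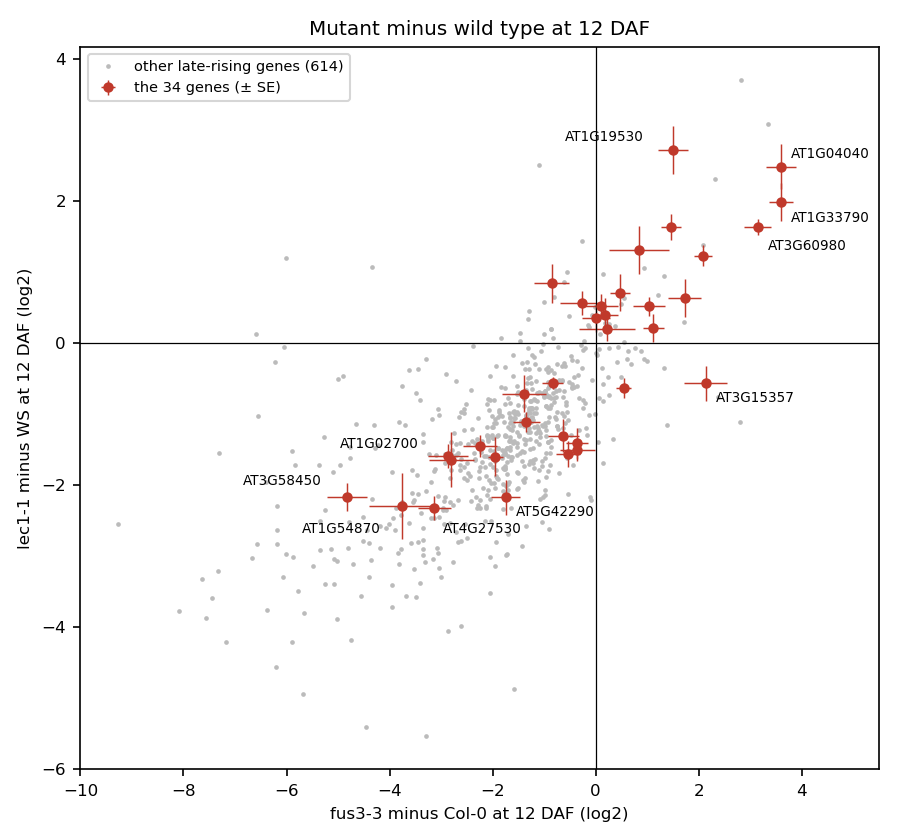
Difference between fus3-3 and Col-0 (horizontal axis) and between lec1-1 and WS (vertical axis) at 12 DAF in log2 units, for the 34 genes (red, with SE bars) and the other 614 late-rising genes (grey). The 34 genes run from −4.83 to 3.60 in fus3-3 and from −2.32 to 2.73 in lec1-1, with 15 of them in the upper right quadrant and 15 in the lower left.

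Of the genes that went above the wild type, AT1G33790 had 10.61, 10.48 and 10.31 in fus3-3, against 6.63, 6.69 and 7.29 in Col-0, a difference of 3.6 ± 0.23 (adjusted p = 2.2e-06), or 12.1-fold. In the other background it had 10.14, 10.05 and 10.22 in lec1-1, against 8.15, 7.94 and 8.34 in WS, a difference of 1.99 ± 0.27 (adjusted p = 2.3e-05). The mutant arrays all lay near 10 and above all wild-type arrays. AT1G04040 had 8.19, 7.91 and 8.17 in fus3-3, against 4.3, 5.15 and 4.03 in Col-0, and 7.31, 7.44 and 7.79 in lec1-1, against 4.77, 5.74 and 4.55 in WS. These were differences of 3.6 ± 0.30 and 2.49 ± 0.32 (adjusted p = 1.1e-05 and 1.3e-05), again with no overlap.

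AT3G60980 had 8.13, 7.95 and 7.9 in fus3-3, against 4.33, 4.81 and 5.41 in Col-0, a difference of 3.15 ± 0.26 (adjusted p = 9.2e-06). It had 8.58, 8.55 and 8.27 in lec1-1, against 6.73, 6.93 and 6.82 in WS, a difference of 1.64 ± 0.12 (adjusted p = 3.9e-08). The mutant arrays were above the wild-type arrays in both backgrounds, and those of WS were all above those of Col-0. AT1G19530 was the gene with the largest difference in lec1-1, at 8.3, 8.44 and 8.95, against 6.45, 5.47 and 5.59 in WS, or 2.73 ± 0.34 (adjusted p = 9.9e-06). In fus3-3 it had 9.14, 9.6 and 9.71, against 7.4, 8.08 and 8.41 in Col-0, or 1.51 ± 0.29 (adjusted p = 0.0024). AT3G03170 had 8.91, 8.66 and 8.94 in fus3-3, against 6.7, 6.93 and 6.6 in Col-0, and 7.74, 7.83 and 7.77 in lec1-1, against 6.55, 6.53 and 6.57 in WS, rises of 2.09 ± 0.17 and 1.23 ± 0.15. AT5G01210 had 8.97, 9.02 and 8.52 in fus3-3, against 7.25, 7.46 and 7.39 in Col-0, and 8.98, 9.04 and 8.94 in lec1-1, against 7.53, 7.37 and 7.16 in WS, rises of 1.47 ± 0.20 and 1.64 ± 0.19. Neither gene had overlapping arrays in either background.

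Rises in fus3-3 alone passed for AT3G15357, AT2G18340, AT1G79150 and AT3G02480, and in lec1-1 alone for AT3G11420. Passing in only 1 mutant does not show that the mutants differ. The fus3-3 effect minus the lec1-1 effect passed for AT3G15357 and for none of the others named here. In lec1-1 AT3G02480 differed by 0.52 ± 0.14 and AT1G79150 by 0.21 ± 0.19, and in fus3-3 AT3G11420 differed by 0.84 ± 0.58. AT3G15357 had 7.02, 6.69 and 5.55 in fus3-3, against 4.12, 4.35 and 4.38 in Col-0, a difference of 2.14 ± 0.42 (adjusted p = 0.0027). In lec1-1 it had 4.34, 4.28 and 4.24, against 4.64, 4.94 and 4.98 in WS, or −0.57 ± 0.24 (adjusted p = 0.054). The arrays were thus on opposite sides of the wild type, without overlap in either background. The LEA gene AT2G18340 rose by 1.73 ± 0.32 in fus3-3 and differed by 0.64 ± 0.27 in lec1-1 (adjusted p = 0.05). The fus3-3 rises of AT3G02480, 1.04 ± 0.32, and AT1G79150, 1.12 ± 0.20, are close to the limit. That of AT3G02480 was lost without any 1 of the 6 arrays compared (adjusted p = 0.051 to 0.072), and that of AT1G79150 without Col-0 12 DAF replicate 1 (0.97) or fus3-3 12 DAF replicate 2 (0.94). The lec1-1 rise of AT3G11420, 1.32 ± 0.34, was lost without WS 12 DAF replicate 1 (0.99).

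Of the genes that stayed below the wild type, AT3G58450 fell most in fus3-3, to 6.84, 7.14 and 6.61, against 11.39, 12.13 and 11.55 in Col-0, a difference of −4.83 ± 0.39 (adjusted p = 9e-06). It was 8.08, 8.55 and 8.75 in lec1-1, against 10.94, 10.64 and 10.32 in WS, a difference of −2.17 ± 0.20 (adjusted p = 4.9e-07). No mutant array came within 1 log2 unit of a wild-type array. AT1G54870 had 10.24, 9.96 and 9.66 in fus3-3, against 13.62, 13.73 and 13.78 in Col-0, and 11.27, 11.35 and 11.52 in lec1-1, against 13.78, 13.64 and 13.61 in WS. These were differences of −3.76 ± 0.63 and −2.3 ± 0.46 (adjusted p = 0.0011 and 0.00074). Its wide spread lies at 8 DAF, where replicate 3 of both wild types was low, with 6.23, 5.64 and 3.35 in Col-0 and 5.21, 4.81 and 2.7 in WS.

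AT4G27530 had 7.01, 6.82 and 6.42 in fus3-3, against 9.51, 10.53 and 9.6 in Col-0, and 8.03, 8.34 and 8.35 in lec1-1, against 10.55, 10.62 and 10.51 in WS, differences of −3.13 ± 0.31 and −2.32 ± 0.17. AT1G02700 had 8.88, 9.86 and 8.41 in fus3-3, against 11.7, 12.25 and 11.81 in Col-0, and 9.46, 9.89 and 9.97 in lec1-1, against 11.51, 11.33 and 11.27 in WS, differences of −2.87 ± 0.39 and −1.59 ± 0.17. AT5G42290 had 7.06, 7.61 and 7.28 in fus3-3, against 8.72, 9.19 and 9.27 in Col-0, and 7.0, 7.2 and 7.63 in lec1-1, against 9.8, 9.31 and 9.25 in WS, differences of −1.74 ± 0.28 and −2.18 ± 0.25. The groups did not overlap in any of these, and the adjusted p in limma ran from 5.7e-08 to 0.0009. The LEA gene AT2G42560 fell by 2.80 in fus3-3 and 1.64 in lec1-1, and AT2G23110 fell by 1.39 in fus3-3, a call lost without any 1 of 4 of the arrays compared, Col-0 12 DAF replicates 2 and 3 and fus3-3 12 DAF replicates 1 and 3 (adjusted p = 0.061 to 0.084). AT1G16850 had 7.32, 7.67 and 6.71 in fus3-3, against 9.4, 9.8 and 9.26 in Col-0, and 8.57, 8.61 and 8.83 in lec1-1, against 10.44, 9.98 and 9.98 in WS, and AT5G66780 had 11.91, 11.89 and 11.25 in fus3-3, against 12.1, 12.45 and 12.11 in Col-0, and 11.07, 11.39 and 11.45 in lec1-1, against 12.94, 12.7 and 12.97 in WS, with overlap in neither gene. In lec1-1 alone falls passed for AT4G24110, AT5G04000, AT5G45920 and AT5G66780, by 1.31, 1.5, 1.41 and 1.57. The fus3-3 effect minus the lec1-1 effect did not pass for AT4G24110 (0.68 ± 0.38) or for AT2G23110 (−0.68 ± 0.49). With arrays centred on reference genes the lec1-1 falls of AT4G24110, AT5G45920 and AT5G50360 were under 2-fold, at −0.85, −0.96 and −0.66.

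The remaining 9 genes passed in neither mutant, which does not show that they did not differ. BGLU25 was among them, with 9.35, 8.97 and 9.11 in fus3-3, against 8.54, 8.54 and 8.72 in Col-0, and 8.45, 8.24 and 8.36 in lec1-1, against 8.91, 8.82 and 9.22 in WS. The fus3-3 arrays were above Col-0 and the lec1-1 arrays below WS, with differences of 0.55 ± 0.15 and −0.63 ± 0.14, both under 2-fold. PIA1 had 7.16, 7.1 and 7.41 in fus3-3, against 6.69, 6.93 and 6.63 in Col-0, and 7.86, 7.91 and 8.03 in lec1-1, against 7.42, 7.48 and 6.77 in WS, differences of 0.47 ± 0.20 and 0.71 ± 0.26. The mutant arrays of PIA1 were above the wild-type arrays in both backgrounds, by less than 2-fold on average.

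Of the other genes that passed in neither mutant at 12 DAF, AT1G23070 had 7.87, 7.93 and 7.82 in fus3-3, against 7.51, 8.33 and 7.45 in Col-0, and 7.64, 7.91 and 7.9 in lec1-1, against 7.62, 7.09 and 7.16 in WS. At 8 DAF it had 5.77, 4.76 and 5.85 in fus3-3, against 2.92, 2.54 and 3.03 in Col-0, and 5.44, 5.7 and 5.47 in lec1-1, against 2.78, 2.78 and 3.26 in WS, so that the mutant arrays stood between the ages of the wild type. AT5G02580 followed the same course, with 7.8, 7.1 and 7.89 in fus3-3, against 7.19, 7.84 and 7.74 in Col-0, and 7.77, 8.06 and 7.73 in lec1-1, against 7.87, 7.47 and 7.16 in WS at 12 DAF. AT1G68250 had 4.95, 6.06 and 5.76 in fus3-3, against 5.91, 6.72 and 6.72 in Col-0, and 5.94, 5.88 and 6.14 in lec1-1, against 5.51, 5.01 and 4.91 in WS, below the wild type in fus3-3 on average and above it in lec1-1, differences of −0.85 ± 0.34 and 0.84 ± 0.28. AT4G29020, a bright gene throughout, had 10.75, 10.36 and 10.78 in fus3-3, against 11.59, 11.31 and 11.5 in Col-0, and 11.14, 11.2 and 11.15 in lec1-1, against 11.71, 11.89 and 11.58 in WS, below the wild type on every array but by less than 2-fold.

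The last 3 of these genes differed little from Col-0 in fus3-3 on average. AT1G18900 had 6.8, 6.55 and 5.88 in fus3-3, against 6.15, 6.52 and 6.02 in Col-0, and 6.69, 6.61 and 6.85 in lec1-1, against 6.16, 6.57 and 6.22 in WS. AT1G76580 had 5.75, 4.05 and 5.88 in fus3-3, against 5.57, 5.55 and 5.34 in Col-0, and 6.98, 7.04 and 7.04 in lec1-1, against 6.64, 6.63 and 6.1 in WS, where fus3-3 12 DAF replicate 2 lay far below the other 2 fus3-3 arrays. AT5G05220 had 5.6, 6.11 and 5.04 in fus3-3, against 4.71, 6.71 and 4.67 in Col-0, and 4.94, 4.81 and 4.94 in lec1-1, against 4.96, 4.41 and 4.71 in WS, where Col-0 12 DAF replicate 2 lay well above the other 2 Col-0 arrays. The differences from the wild type were 0.18 ± 0.25, −0.26 ± 0.42 and 0.22 ± 0.54 in fus3-3, each smaller than its SE.

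**Figure D4:**
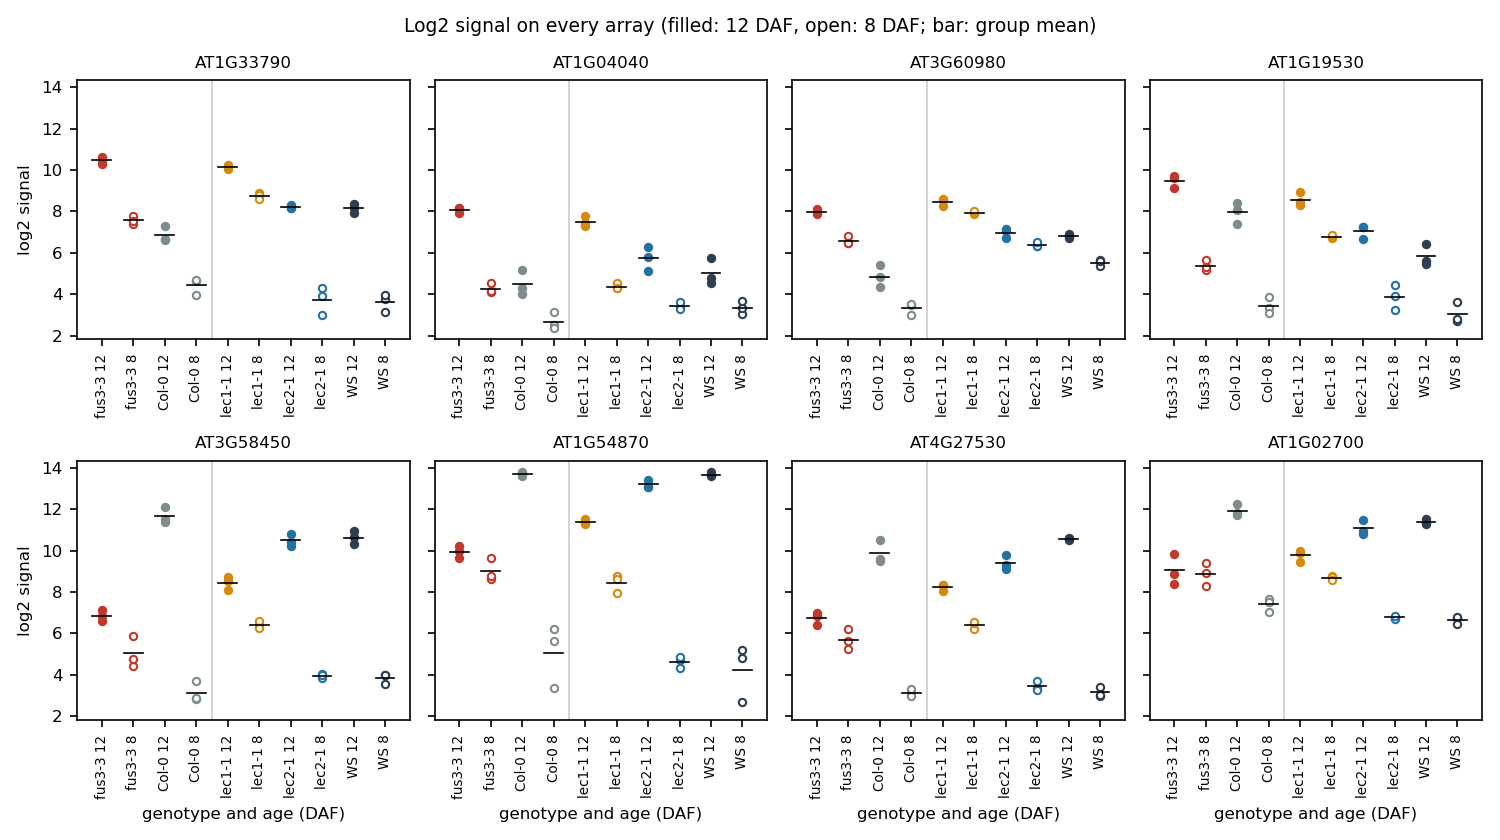
Log2 signal on every array (points, filled for 12 DAF and open for 8 DAF; bars are group means) of 4 genes that rose and 4 that fell in both fus3-3 and lec1-1 at 12 DAF. In the upper row the fus3-3 and lec1-1 points of 12 DAF lie above those of Col-0 and WS at 12 DAF and in the lower row below them.

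The seed tissue markers at 12 DAF moved as follows beside these changes. MPC, an endosperm marker, rose by 3.05 ± 0.15 in fus3-3 and 3.39 ± 0.33 in lec1-1, while the other 2 measured endosperm markers, AGL62 and IKU2, changed by less than 2-fold. The 3 seed coat markers did not pass in either. Of the 11 photosynthesis genes 8 rose and 1 fell in fus3-3, and 10 rose and 1 fell in lec1-1. The valve margin gene ALC, the 1 measured of 6 silique wall markers, rose by 1.67 ± 0.26 and 2.06 ± 0.19. The actin control probe sets, whose excess of 3′ over 5′ signal grows as RNA is degraded, differed by 5.91 ± 0.76 in fus3-3 and 4.87 ± 0.04 in Col-0 at 12 DAF, and 5.47 ± 0.18 in lec1-1 and 5.33 ± 0.015 in WS, each over 3 arrays (SD). For the GAPDH control the excess was 1.93 ± 0.19 in fus3-3 and 2.37 ± 0.34 in Col-0, and 1.86 ± 0.02 in lec1-1 and 2.25 ± 0.06 in WS, lower in both mutants. At 8 DAF the actin excess was 5.603 ± 0.075 in fus3-3 and 5.538 ± 0.041 in Col-0. It was 6.03 ± 0.092 in lec1-1 and 5.692 ± 0.044 in WS at 8 DAF, without overlap. The GAPDH excess at 8 DAF was 1.392 ± 0.437 in fus3-3, 1.58 ± 0.035 in Col-0, 1.605 ± 0.07 in lec1-1 and 1.708 ± 0.065 in WS. The part of these markers and controls in the early excess and the 12 DAF changes of the 34 genes was not tested.

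Between 8 and 12 DAF the mutants still added to part of the genes. The 8 DAF mutant arrays were chosen high by the rule and the 12 DAF arrays were not. In fus3-3, 14 of the 34 genes rose and 0 fell, with 1 falling at an unadjusted p below 0.05 in limma (AT4G29020), where 4.24% of all genes rose and 4.81% fell. In lec1-1, 17 rose and 1 fell, where 6.2% of all genes rose and 4.93% fell. Of the other 614 late-rising genes 153 rose and 10 fell in fus3-3, and 228 rose and 5 fell in lec1-1. In both mutants 12 of the genes rose, where 2.67% of all genes and 113 of the other 614 late-rising genes did, and 3.05% of all genes fell in both. Among them AT1G04040 rose by 3.82 ± 0.30 in fus3-3 and 3.15 ± 0.32 in lec1-1, AT2G23110 by 3.84 ± 0.43 and 2.95 ± 0.26, AT1G19530 by 4.1 ± 0.29 and 1.78 ± 0.34, and PIA1 by 2.67 ± 0.20 and 2.45 ± 0.26. For AT1G04040 that was 8.19, 7.91 and 8.17 at 12 DAF, against 4.12, 4.15 and 4.55 at 8 DAF in fus3-3, with a gap of over 3 log2 units between the ages.

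In 14 genes no change passed in either mutant. They include AT5G42290, AT1G16850 and AT2G42560, which were high early and then stood below the 12 DAF wild type. AT5G42290 had 7.06, 7.61 and 7.28 at 12 DAF, against 8.2, 7.3 and 7.63 at 8 DAF in fus3-3, and 7.0, 7.2 and 7.63 at 12 DAF, against 7.49, 7.69 and 7.1 at 8 DAF in lec1-1, with overlapping arrays in both. AT1G16850 differed by −0.19 ± 0.33 in fus3-3 and −0.5 ± 0.15 in lec1-1, and AT2G42560 by −0.05 ± 0.44 and −0.09 ± 0.38. AT3G15357 was the gene that fell in lec1-1, to 4.34, 4.28 and 4.24 at 12 DAF, against 6.09, 6.09 and 5.93 at 8 DAF, a change of −1.75 ± 0.24 (adjusted p = 7.4e-05), with no overlap. AT1G54870 rose in lec1-1 by 2.92 ± 0.46 and did not pass in fus3-3, at 0.94 ± 0.63 (adjusted p = 0.47). With the replicate number as a block, the fus3-3 count was 13, since AT5G04000 no longer passed (adjusted p = 0.076). That gene was also lost without any 1 of 5 of the 6 arrays, and BGLU25, at 1.09 ± 0.15, went under 2-fold without fus3-3 8 DAF replicate 2 or fus3-3 12 DAF replicate 1. In lec1-1 AT1G02700, at 1.08 ± 0.17, went under 2-fold without lec1-1 12 DAF replicate 3, and AT3G11420, at 1.0 ± 0.34, was lost without any 1 of 5 of the 6 arrays.

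The lec1-1 and lec2-1 seeds of 12 DAF can be set against each other without any array of the rule. The choice of genes still bears on this comparison. The rule required a high signal in lec1-1 at 8 DAF and put no condition on lec2-1, which favours lec1-1 above lec2-1. The other 614 late-rising genes did not meet all its conditions or were left out by name, so the contrast with them is partly built in. In lec1-1 against lec2-1, 8 of the 34 genes rose and 6 fell, where 5.52% of all genes rose and 5.49% fell, with a median difference of 0.049. Of the other 614 late-rising genes 14 rose and 251 fell, with a median of −0.86. With arrays centred on reference genes 12 of the 34 rose and 3 fell, in a scaling that moved the median of all genes from −0.03 to 0.31 and the calls over all genes from 737 risen and 733 fallen to 1432 and 415. The comparison of lec1-1 with lec2-1 is also a test of whether their differences from WS differ, since WS is common to both.

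AT1G33790 had 10.14, 10.05 and 10.22 in lec1-1, against 8.17, 8.32 and 8.19 in lec2-1, a difference of 1.91 ± 0.27 (adjusted p = 7.2e-05). AT1G04040 had 7.31, 7.44 and 7.79 in lec1-1, against 5.1, 6.3 and 5.82 in lec2-1, a difference of 1.77 ± 0.32 (adjusted p = 0.00054). AT3G60980 had 8.58, 8.55 and 8.27 in lec1-1, against 6.7, 7.04 and 7.14 in lec2-1, and AT1G19530 had 8.3, 8.44 and 8.95 in lec1-1, against 6.69, 7.26 and 7.23 in lec2-1, differences of 1.51 and 1.5 (adjusted p = 2.8e-07 and 0.003). The lec1-1 arrays of these 4 genes were all above the lec2-1 arrays. AT5G01210, AT1G23070, AT5G05220 and AT3G15357 rose by 1.43, 1.35, 1.25 and 1.16, the last of them under 2-fold without lec2-1 12 DAF replicate 3 (0.89).

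On the lower side AT3G58450 had 8.08, 8.55 and 8.75 in lec1-1, against 10.44, 10.81 and 10.24 in lec2-1, a difference of −2.04 ± 0.20 (adjusted p = 2.5e-06). AT1G54870 had 11.27, 11.35 and 11.52 in lec1-1, against 13.08, 13.42 and 13.09 in lec2-1, a difference of −1.82 ± 0.46 (adjusted p = 0.0072). AT5G42290 had 7.0, 7.2 and 7.63 in lec1-1, against 8.66, 9.56 and 8.66 in lec2-1, or −1.69 ± 0.25, and AT1G02700 had 9.46, 9.89 and 9.97 in lec1-1, against 10.78, 11.48 and 10.95 in lec2-1, or −1.3 ± 0.17. All lec1-1 arrays of these 4 genes were below the lec2-1 arrays. AT4G27530 fell by 1.16, under 2-fold without lec2-1 12 DAF replicate 2 (−0.97), and the LEA gene AT2G42560 fell by 1.11 (adjusted p = 0.04), a call lost without lec1-1 12 DAF replicate 1 or 2 or lec2-1 12 DAF replicate 2. With centring on reference genes AT1G02700, AT4G27530 and AT2G42560 were the 3 no longer called, at −0.95, −0.82 and −0.77.

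Against WS at 12 DAF, whose arrays were chosen high, lec2-1 showed few calls among the 34 genes: 1 rose and 4 fell, where 5.08% of all genes rose and 1.32% fell. AT1G19530 rose by 1.22 ± 0.34 (adjusted p = 0.013), with 6.69, 7.26 and 7.23 in lec2-1, against 6.45, 5.47 and 5.59 in WS, without overlap, a call lost without WS 12 DAF replicate 2. AT3G15357 fell most, to 3.75, 3.03 and 2.6 in lec2-1, against 4.64, 4.94 and 4.98 in WS, a difference of −1.73 ± 0.24 (adjusted p = 0.00015). AT4G24110, AT4G27530 and AT5G05220 fell by 1.36, 1.16 and 1.04, the last under 2-fold without WS 12 DAF replicate 1 or either of lec2-1 12 DAF replicates 1 and 3. The median difference was −0.36, beside −0.45 for the other 614 late-rising genes.

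The effects of fus3-3 and lec1-1 at 12 DAF were also set against each other, as the fus3-3 minus Col-0 difference minus the lec1-1 minus WS difference in a fit of all 30 arrays. This comparison, which also holds any difference between the backgrounds, was higher for 7 of the 34 genes and lower for 3, where 3.62% of all genes were higher and 4.7% lower. AT3G15357 was higher by 2.71 ± 0.47 (adjusted p = 0.00031), AT1G33790 by 1.6 ± 0.37, AT3G60980 by 1.51 ± 0.27 and BGLU25 by 1.18 ± 0.21. AT5G04000, AT5G45920 and AT5G66780 were higher by 1.15, 1.05 and 1.03, and all 3 were lost without Col-0 12 DAF replicate 1 and without 1 or more of the other arrays. The lower ones were AT3G58450, at −2.65 ± 0.42 (adjusted p = 0.0001), AT1G68250, at −1.7 ± 0.45, and AT1G02700, at −1.27 ± 0.41, the last of which was lost without any 1 of 7 of the 12 arrays. With arrays centred on reference genes 3 were higher (AT3G15357, AT1G33790 and AT3G60980) and 9 lower, in a scaling that moved the median of all genes from 0.05 to −0.37 and the calls over all genes from 484 higher and 628 lower to 234 and 1490.

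Over the LEA list, of which 36 of 52 genes were measured and 4 are among the 34, 18 rose and 3 fell in lec2-1 from 8 to 12 DAF, with a median change of 1.08, beside 0.012 over all genes. At 12 DAF 11 of the 36 rose and 14 fell in fus3-3 against Col-0, with a median of −0.145, and 9 rose and 10 fell in lec1-1 against WS, with a median of −0.16. The 5 genes that the rule leaves out, LEA genes by that list, had early differences from 3.98 to 6.47 in fus3-3 and from 3.72 to 5.19 in lec1-1, beside medians of 2.33 and 2.17 for the 34. The 5 storage protein genes measured fell in 5 cases in fus3-3 and 4 in lec1-1 at 12 DAF, and the 4 of 11 oil body genes measured fell in all 4 cases in both. The only measured gene of a list of 45 for abscisic acid, the hormone of late maturation, was EEL, a bZIP factor, which fell by 2.25 in fus3-3 and 2.33 in lec1-1.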

How the data were processed

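RNA of whole seeds was hybridised to 1-colour Affymetrix arrays. The deposited values are log2 signals per probe set, already processed by the authors. The submitters' processing notes name GCOS 1.3 and GCRMA, with no version of GCRMA and no word on whether the 30 arrays went through it as 1 set. Of 22810 probe sets, 64 were controls and 13513 were paired with 1 gene in the platform annotation; for each of 13355 genes the probe set with the highest mean over 30 arrays was used. Columns were matched to samples by accession, and groups and replicate numbers came from the labels. Those of Col-0 at 12 DAF, unlike the others, have 2 parts, of which the second was taken. The first part is the same on all arrays of that group, and the labels do not say what it stands for. Whether these arrays are as independent as those of the other groups could not be checked. No value was filtered or rescaled.

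The genes and lists were chosen with earlier results of these data known. Moderated tests were run in limma 3.58.1 (R 4.3.3) on the 12 Col-0 and fus3-3 arrays or the 18 WS, lec1-1 and lec2-1 arrays, with Benjamini-Hochberg adjustment over all 13355 genes and a call at an adjusted p under 0.05 and a log2 change of at least 1. The test of the fus3-3 effect minus the lec1-1 effect was added after the data were seen. The fits were tested on simulated data.

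The genes named with their array values were the 4 with the highest and the 4 with the lowest differences in each main comparison, the 3 nearest the limit of the rule on either side, the LEA genes and those with a name; further genes were named as members of a count or as an extreme. Replicate numbers were checked for pairing by the correlation of deviations from the group means: it was above 0.1 for all 3 numbers only between fus3-3 at 12 and 8 DAF (r = 0.246, 0.218 and 0.447), and no label states a shared batch. Alternatives were a second quantile normalization, centring on 5 reference genes, a filter on dim genes, other fits, the replicate block, other thresholds and each array left out in turn. Promoters and proteins were not used here.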

Additional observations from a re-analysis of the deposited data

Results flagged for a closer look

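The effects of lec1-1 and lec2-1 at 12 DAF, both taken against WS, differed by the test of the difference itself for 14 of the 34 genes. The lec1-1 effect was the higher one for 8 genes, led by AT1G33790 and AT1G04040, and the lower one for 6, led by AT3G58450 and AT1G54870, where 5.52% of all genes were higher and 5.49% lower. With arrays centred on reference genes it was higher for 12 and lower for 3. The rule chose the genes high in lec1-1 at 8 DAF and put no condition on lec2-1, which favours a higher lec1-1 effect.

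The effects of fus3-3 (against Col-0) and lec1-1 (against WS) at 12 DAF differed by the interaction test for 10 of the 34 genes. The fus3-3 effect was higher for 7, led by AT3G15357, and lower for 3, led by AT3G58450, where 3.62% of all genes were higher and 4.7% lower. It was higher for 3 and lower for 9 with arrays centred on reference genes, and higher for 4 without Col-0 12 DAF replicate 1.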

How the results depend on the processing

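No call among the 34 genes changed direction under any alternative run. Of 4760 values of single genes under the alternatives, 4558 kept their side of the threshold, 108 newly passed it and 94 no longer did. Without a minimum fold the counts were 13 risen and 11 fallen for lec1-1 against lec2-1 at 12 DAF, 12 risen for lec1-1 against WS at 12 DAF, 6 risen for lec2-1 against WS at 8 DAF, 4 risen and 11 fallen for lec2-1 against WS at 12 DAF, and 4 fallen in lec1-1 from 8 to 12 DAF. With arrays centred on reference genes, 3 fell for lec1-1 against lec2-1, 11 rose for lec1-1 against WS and 2 for lec2-1 against WS at 12 DAF, and the fus3-3 effect minus the lec1-1 effect was higher for 3 and lower for 9. With only the arrays compared, 0 fell for lec2-1 against WS at 8 DAF and 0 rose at 12 DAF, where limma's fit of 18 arrays called 1 each. At an adjusted p under 0.01 the lec2-1 rise against WS at 12 DAF was 0, and the interaction was higher for 4 and lower for 1. The 5 reference genes averaged 7.38 to 7.48 on the lec1-1 arrays of 12 DAF, against 7.78 to 7.95 in WS and 7.65 to 7.90 in lec2-1. At 8 DAF they averaged 7.476 to 7.535 in lec1-1, against 7.761 to 7.888 in WS and 7.68 to 7.756 in lec2-1. Centring on them thus raised the lec1-1 values of both ages relative to WS and lec2-1. With that centring 37 genes met the rule, 33 of them among the 34. Why the reference genes were lower in lec1-1 was not tested.

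Leaving out each array in turn gave 27 to 28 risen and 0 fallen in lec2-1 from 8 to 12 DAF, 12 to 15 and 0 in fus3-3, and 15 to 17 and 1 in lec1-1. At 12 DAF it gave 8 to 10 risen and 9 to 11 fallen for fus3-3 against Col-0, 7 and 13 for lec1-1 against WS, 7 to 9 and 4 to 9 for lec1-1 against lec2-1, and 1 to 2 and 3 to 5 for lec2-1 against WS. It gave 3 to 4 and 0 to 1 for lec2-1 against WS at 8 DAF, and 4 to 9 higher and 2 to 4 lower for the interaction, with 4 without Col-0 12 DAF replicate 1. The number of genes meeting the rule was 30 to 37 without 1 array, 21 at a limit of 1.5 and 150 at 0.5. With the replicate number as a block, 13 genes rose in fus3-3 from 8 to 12 DAF in place of 14, and no other call of a replicate block changed. Signals near the floor or near the array maximum understate differences, and 3 arrays per group limit what can be told apart.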
